A study of Mus musculus with 9 samples.

Results

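The unfolded protein response and the integrated stress response were followed in the intestine of mice through 10 genes, taken by symbol from the 54532 genes of the deposited table. They were chosen with earlier results of these data known, so their counts beside those of all genes are descriptions. Of the 10 genes, 5 (Hspa5, Sdf2l1, Dnajb9, Herpud1 and Xbp1) belong to the unfolded protein response and 5 (Atf4, Ddit3, Trib3, Chac1 and Asns) to the integrated stress response. The study asks whether lycopene, a red carotenoid of tomato, lessens injury of the intestine by radiation. Mice of the IR+LYC group were given lycopene (10 mg/kg) in corn oil by daily gavage for 10 days, with 12 Gy of radiation to the whole abdomen on day 4. Mice of the IR group were given corn oil and the same dose of radiation, and control mice were given corn oil alone. A group given lycopene without radiation was not analysed here, so the effect of lycopene could be read only in irradiated mice. Each group had 3 RNA libraries of intestine. Strain, sex, age and gut segment are not stated in the labels. Nor is it stated that each library came from its own mouse, so p-values measure the spread between these samples, which may be technical.

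Proteins that enter the secretory pathway fold in the endoplasmic reticulum (ER). Unfolded protein there is sensed by IRE1 (gene Ern1), PERK (Eif2ak3) and ATF6, which raise chaperones, the disposal of misfolded protein and, through spliced Xbp1 mRNA, the secretory machinery itself. PERK and other kinases phosphorylate the initiation factor eIF2 alpha, which slows translation and favours that of Atf4; ATF4 then drives genes of amino acid supply and, with prolonged stress, CHOP (Ddit3) and its partners. In the intestine, Paneth, goblet and plasma cells secrete much protein and depend on Xbp1 and its targets. Splicing of Xbp1 and phosphorylation of eIF2 alpha, the steps that switch these responses on, are not measured by gene-level RNA values.

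The promoters show which of these genes carry the DNA elements of either response. The ER stress element (ERSE, written here as CCAAT, 9 bases, then CCACG) is bound by ATF6 with NF-Y, ERSE-II (ATTGG, 1 base, CCACG) is its short relative, and the C/EBP-ATF element (TGATGNAA) is bound by ATF4 and CHOP dimers. All were searched on both strands from 250 bases before to 50 after the RefSeq start of each gene (GRCm38.p6), and promoters of all 10 genes were found. The sequences below run from 250 bases before to the 30 bases after the start, 5′ to 3′ on the strand of the gene, and are those of the members with an ERSE, an ERSE-II or a C/EBP-ATF element. Syvn1, the ER ubiquitin ligase described with the pathway lists, is added as a further gene whose ERSE reads on its own strand, as in Hspa5. Every ERSE has the same ends by definition, and Derl3 and Creld2 of the pathway lists hold an ERSE on the opposite strand. Capitals mark the ERSE ends in Hspa5 and Syvn1, the ERSE-II ends and the C/EBP-ATF element in Herpud1, and the C/EBP-ATF element in Asns, Chac1 and Trib3; in Herpud1, Chac1 and Trib3 that element reads on the opposite strand.
Hspa5, chr2:34771840-34772119, plus strand: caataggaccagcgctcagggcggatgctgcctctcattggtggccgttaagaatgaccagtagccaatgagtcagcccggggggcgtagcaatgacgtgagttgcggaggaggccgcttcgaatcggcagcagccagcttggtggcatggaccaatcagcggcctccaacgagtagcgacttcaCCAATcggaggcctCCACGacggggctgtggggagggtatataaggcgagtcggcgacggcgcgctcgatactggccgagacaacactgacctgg
Syvn1, chr19:6046326-6046605, plus strand: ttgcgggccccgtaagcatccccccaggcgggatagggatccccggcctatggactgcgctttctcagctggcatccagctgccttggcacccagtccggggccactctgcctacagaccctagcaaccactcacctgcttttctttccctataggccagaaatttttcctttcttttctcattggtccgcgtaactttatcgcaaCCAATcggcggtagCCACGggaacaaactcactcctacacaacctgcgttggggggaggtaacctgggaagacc
Herpud1, chr8:94386179-94386458, plus strand: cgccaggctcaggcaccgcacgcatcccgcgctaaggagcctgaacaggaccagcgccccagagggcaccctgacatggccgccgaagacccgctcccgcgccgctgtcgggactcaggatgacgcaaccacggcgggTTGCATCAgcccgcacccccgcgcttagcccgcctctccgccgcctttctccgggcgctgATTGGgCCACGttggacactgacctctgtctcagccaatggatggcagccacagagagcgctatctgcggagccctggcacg
Asns, chr6:7693180-7693459, minus strand: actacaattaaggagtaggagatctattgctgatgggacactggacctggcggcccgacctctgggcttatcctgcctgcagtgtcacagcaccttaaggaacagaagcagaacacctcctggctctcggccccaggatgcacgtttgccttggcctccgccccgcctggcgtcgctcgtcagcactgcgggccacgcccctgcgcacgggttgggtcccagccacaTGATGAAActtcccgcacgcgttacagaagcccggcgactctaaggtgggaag
Chac1, chr2:119350992-119351271, plus strand: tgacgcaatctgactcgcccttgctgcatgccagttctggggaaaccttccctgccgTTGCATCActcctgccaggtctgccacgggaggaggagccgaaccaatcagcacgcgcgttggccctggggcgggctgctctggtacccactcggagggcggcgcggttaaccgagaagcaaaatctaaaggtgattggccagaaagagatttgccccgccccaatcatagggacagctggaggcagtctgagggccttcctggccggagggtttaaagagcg
Trib3, chr2:152344031-152344310, minus strand: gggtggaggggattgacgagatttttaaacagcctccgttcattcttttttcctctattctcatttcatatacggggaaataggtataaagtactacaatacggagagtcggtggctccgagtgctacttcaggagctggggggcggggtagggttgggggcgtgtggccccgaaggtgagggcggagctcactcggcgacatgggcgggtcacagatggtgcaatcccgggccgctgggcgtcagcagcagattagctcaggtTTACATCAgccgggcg

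The ERSE began 65 bases before the start in Hspa5 and 44 before it in Syvn1, and the ERSE-II of Herpud1 began 52 bases before it. The C/EBP-ATF element began 23 bases before the start in Asns, 112 in Herpud1 and 193 in Chac1, and 14 bases after it in Trib3. The core CCACG alone was in 7 of the 10 members, the ERSE and ERSE-II included, but also in 32.8% of the 32851 mouse promoter windows of the same length. The ERSE was in 0.119% of those windows, the ERSE-II in 0.0365% and the C/EBP-ATF element in 3.97%. A further element of the unfolded protein response, TGACGTGG, was in 0.676% of them and in 0 of the 10 members. Xbp1 and Ddit3 held none of the 5 patterns in their windows. Only exact matches within the windows were sought, so elements farther away or spelled otherwise would be missed. The RefSeq start lies inside the gene as the deposited table bounds it in Hspa5 (120 bases past its start), Asns (45), Dnajb9 (258), Ddit3 (19) and Chac1 (13), so the ERSE of Hspa5 and the C/EBP-ATF element of Asns lie within those bounds. These matches are descriptions of the letters, and binding was not measured.

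**Figure D1:**
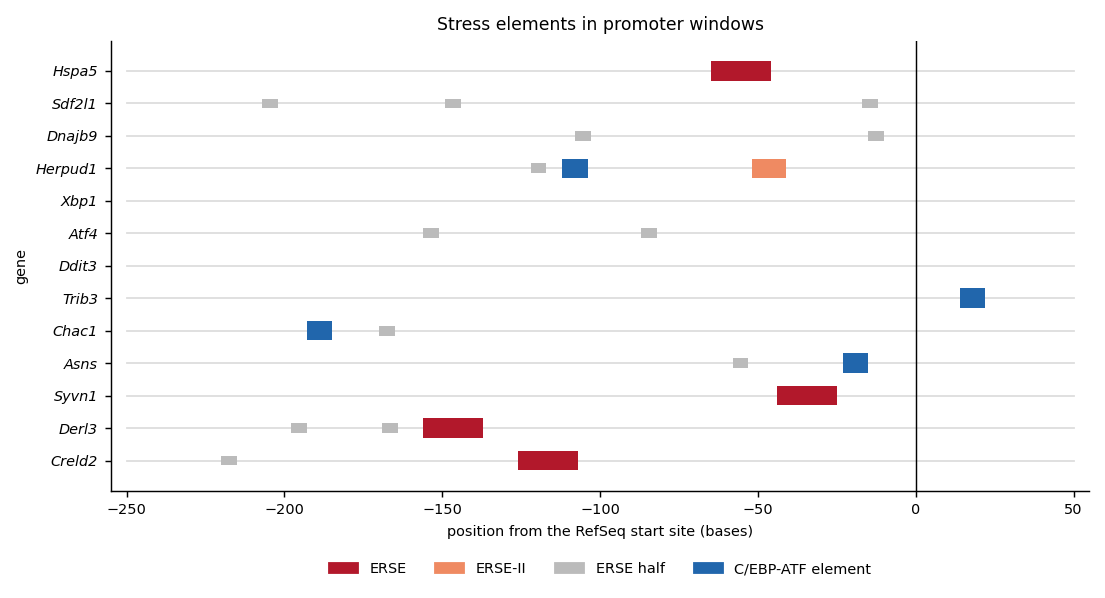
Position of the matches to the stress elements in the promoter windows of the 10 members and of Syvn1, Derl3 and Creld2, in bases from the RefSeq start site, from 250 before to 50 after it. The ERSE lies 65 bases before the start in Hspa5 and 44 before it in Syvn1, while the C/EBP-ATF element lies 23 bases before it in Asns.

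The levels are FPKM as the authors deposited them, read fragments scaled by gene length and by a divisor set for each library. From them 17803889 to 22414949 reads per library were recovered. Library IR+LYC 2 stood apart from IR+LYC 1 and 3. The summed FPKM of 12 enterocyte markers was 1307, 26275 and 6523 in IR+LYC, 18697, 3672 and 22604 in IR and 21221 to 28504 in control. The summed FPKM of 10 plasma cell markers was 1573, 7936 and 2110 in IR+LYC, 2570, 1165 and 3550 in IR and 10419 to 15895 in control. Fabp6, a gene of the distal small intestine that encodes the ileal bile acid binding protein, was at 93.9, 0.274 and 419 FPKM in IR+LYC, 305.3, 1561 and 119 in IR and 0.593, 89.9 and 253 in control. IR+LYC 2 and control 1 were thus the libraries nearly without Fabp6. They were also the highest of the 9 for Gata4, a transcription factor of the proximal small intestine, which was at 10.6, 33.7 and 13.4 FPKM in IR+LYC, 18.7, 9.19 and 25.2 in IR and 37.0, 26.2 and 23.8 in control. As the segment of each library is not stated, a difference in segment between libraries cannot be told apart from one between groups, and whether the label of IR+LYC 2 holds was not tested. This limits both the values of IR+LYC and the tests without IR+LYC 2. The tests and counts of the 10 genes and the medians of the gene lists are given with and without IR+LYC 2, and other values are of all 9 libraries unless said otherwise.

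Most of these genes were below the control level in every irradiated library but IR+LYC 2. Over those 5 libraries Trib3 averaged 0.332 times, Herpud1 0.568 times, Dnajb9 0.571 times, Ddit3 0.652 times, Xbp1 0.716 times and Atf4 0.740 times the control mean in FPKM. On the same measure Hspa5 was at 0.832 times, Sdf2l1 at 0.951 times, Chac1 at 1.14 times and Asns at 1.15 times. Over all 6 irradiated libraries the ratios were 0.593 for Trib3, 0.740 for Herpud1, 0.649 for Dnajb9, 0.738 for Ddit3, 0.782 for Xbp1, 0.851 for Atf4, 0.842 for Hspa5, 0.942 for Sdf2l1, 2.13 for Chac1 and 1.18 for Asns. IR+LYC 2 alone thus moved Trib3 and Chac1 by over 1.5 times. IR+LYC 2 was the highest of the 9 libraries for Herpud1, Xbp1, Atf4, Ddit3, Trib3, Chac1 and Asns. With all 9 libraries 0 of the 10 genes passed the test in any comparison (limma on log2(FPKM + 1), Benjamini and Hochberg adjustment over all 15391 genes tested, threshold 0.05), where 0.0195% of all genes passed in IR and in IR+LYC against control, 0% in IR+LYC against IR and 0.0325% in both irradiated groups against control. When IR+LYC 2 was left out, 7 of 10 fell in IR+LYC against control, where 15.5% of all genes did, and 5 of 10 in both irradiated groups against control, where 7.7% did. Among the IR+LYC libraries, IR+LYC 2 was the highest for each gene that fell. Its omission could thus only lower their IR+LYC means, and it left that group with 2 libraries. These counts depend on the choice of that library and are descriptions.

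**Figure D2:**
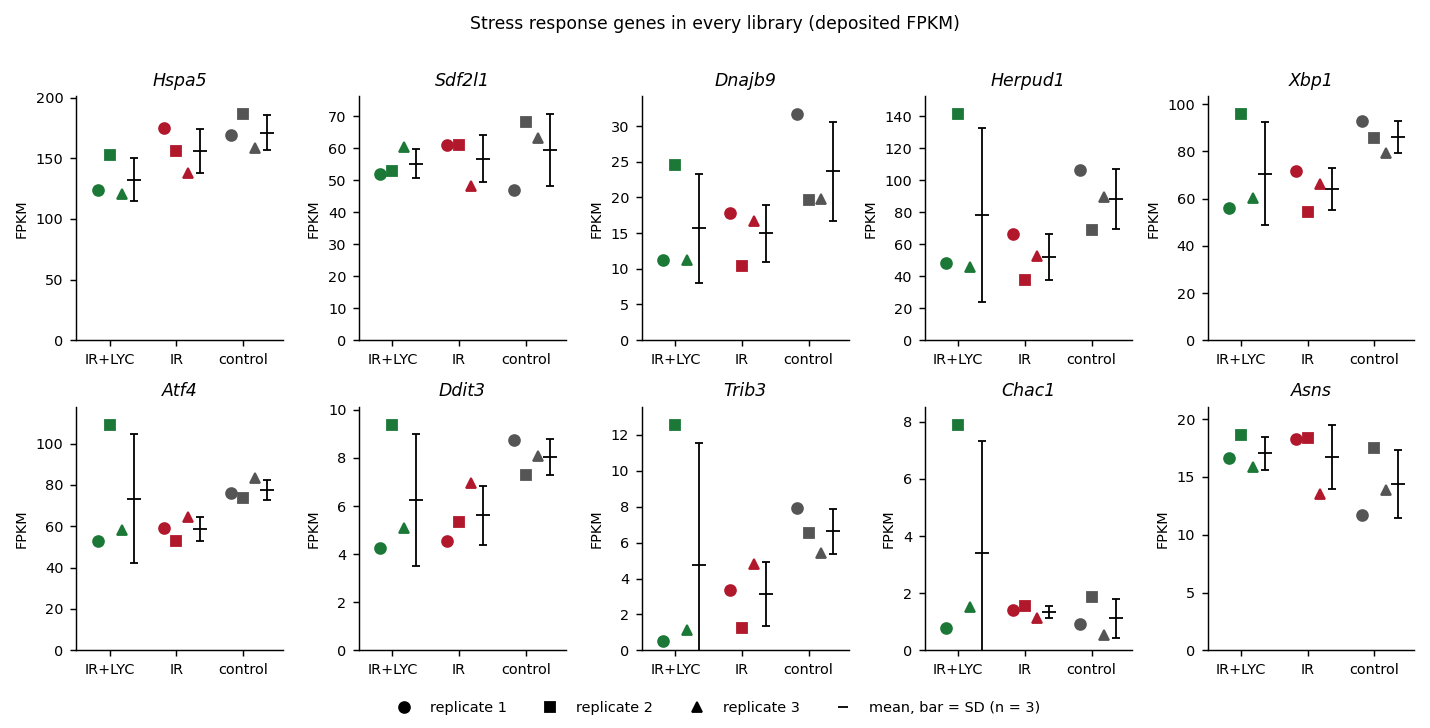
Deposited FPKM of the 10 genes in each of the 9 libraries, with the mean and SD of each group (n = 3; bars that would run below 0 end at the axis), IR+LYC on the left, then IR and control. The square of IR+LYC is IR+LYC 2, which reaches 141 FPKM for Herpud1 and 12.6 for Trib3, while the circle and triangle of IR+LYC lie below all controls for both genes.

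Hspa5 and Sdf2l1, which act together in folding, had narrower differences than Dnajb9. Hspa5 (ENSMUSG00000026864, chromosome 2, 34771970 to 34777547) encodes BiP, the ER chaperone that also holds the stress sensors inactive. It was at 124, 152 and 120.2 FPKM in IR+LYC, 175, 156 and 138 in IR and 169, 186 and 158 in control, the highest level of the 10 genes in every library. All 3 IR+LYC libraries were below all 3 controls, while IR overlapped with both. The difference of IR+LYC from control did not pass (log2 -0.38, 95% interval -0.74 to -0.01, adjusted p = 0.351), and passed without IR+LYC 2 (log2 -0.48, 95% interval -0.82 to -0.15, adjusted p = 0.0445, 0.0445 to 0.706 over the alternatives). Sdf2l1 (ENSMUSG00000022769, chromosome 16, 17130138 to 17132383), which assists BiP in keeping proteins soluble, was at 52.1, 53.1 and 60.3 FPKM in IR+LYC, 61.1, 60.9 and 48.3 in IR and 46.9, 68.2 and 63.3 in control. Its groups overlapped in every comparison, and both irradiated groups against control gave log2 -0.07, 95% interval -0.42 to 0.27, adjusted p = 0.797. Dnajb9 (ENSMUSG00000014905, chromosome 12, 44205559 to 44210326), a BiP cochaperone that turns IRE1 off, was at 11.3, 24.5 and 11.3 FPKM in IR+LYC, 17.9, 10.4 and 16.7 in IR and 31.6, 19.6 and 19.7 in control. The IR libraries were all below the controls, as were IR+LYC 1 and 3, and IR+LYC 2 was exceeded by control 1 alone.

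In Herpud1 and Xbp1, IR+LYC 2 lay above every control and the 5 other irradiated libraries below every control. Herpud1 (ENSMUSG00000031770, chromosome 8, 94386438 to 94395377) encodes an ER membrane protein that helps assemble the complex for degradation of misfolded protein. It was at 48.4, 141 and 45.8 FPKM in IR+LYC, 66.4, 37.7 and 52.4 in IR and 106, 69.1 and 89.3 in control. The IR libraries and IR+LYC 1 and 3 were all below the lowest control, and IR+LYC 2 was at 1.60 times the control mean. Xbp1 (ENSMUSG00000020484, chromosome 11, 5520659 to 5525893), the transcription factor made from the mRNA that IRE1 splices, was at 56.0, 95.7 and 60.2 FPKM in IR+LYC, 71.6, 54.2 and 66.4 in IR and 93.1, 85.8 and 79.5 in control. Again 5 irradiated libraries lay below every control and IR+LYC 2 above every control. The values are the sum of spliced and unspliced Xbp1 mRNA. In both irradiated groups against control Herpud1 gave log2 -0.56, 95% interval -1.41 to 0.30, adjusted p = 0.454, and Xbp1 gave log2 -0.37, 95% interval -0.81 to 0.06, adjusted p = 0.386. Without IR+LYC 2 both fell: Herpud1 by 0.82 on the log2 scale (adjusted p = 0.0456, 0.0456 to 0.756 over the alternatives) and Xbp1 by 0.49 (adjusted p = 0.0416, 0.0416 to 0.697). An antisense gene, Gm15890, overlaps Herpud1, and no source used here gives the strand setting of the counting, so reads of the pair cannot be told apart.

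Atf4 and Ddit3 were likewise high in IR+LYC 2 and low in the other irradiated libraries. Atf4 (ENSMUSG00000042406, chromosome 15, 80255184 to 80257541), the transcription factor of the integrated stress response, was at 52.7, 109 and 58.2 FPKM in IR+LYC, 59.1, 52.8 and 64.5 in IR and 76.0, 73.8 and 83.1 in control. IR+LYC 2 was 1.41 times the control mean and the 5 other irradiated libraries were below all controls. Ddit3 (ENSMUSG00000025408, chromosome 10, 127290774 to 127296288), which encodes CHOP, a factor that favours cell death under lasting stress, was at 4.27, 9.39 and 5.10 FPKM in IR+LYC, 4.54, 5.32 and 6.97 in IR and 8.76, 7.29 and 8.08 in control. Only IR+LYC 2 among the irradiated libraries exceeded the lowest control. Mars and Gm4189 overlap Ddit3 on the opposite strand, so its reads are uncertain in the same way, and a further 105-base row named Ddit3 inside this gene was at 0 in all 9 libraries and was not tested.

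Trib3 had the widest relative span of the 10 genes, its highest library being at 25.2 times its lowest in FPKM. Trib3 (ENSMUSG00000032715, chromosome 2, 152337422 to 152344032) encodes a pseudokinase that CHOP and ATF4 raise and that restrains both ATF4 and AKT signalling. It was at 0.499, 12.6 and 1.12 FPKM in IR+LYC, 3.35, 1.23 and 4.80 in IR and 7.92, 6.52 and 5.44 in control, from 30 reads in IR+LYC 1 to 407 in IR+LYC 2. The 3 IR libraries and IR+LYC 1 and 3 were below every control, whereas IR+LYC 2 was at 1.90 times the control mean. Its group means were 4.73 ± 6.80 FPKM in IR+LYC, 3.13 ± 1.79 in IR and 6.63 ± 1.24 in control (SD, n = 3 each). In both irradiated groups against control it gave log2 -1.04, 95% interval -2.55 to 0.46, adjusted p = 0.434, and without IR+LYC 2 it fell by 1.53 (adjusted p = 0.0327, 0.0327 to 0.720 over the alternatives). Differences on the log2(FPKM + 1) scale understate the change of low genes such as Trib3 and Chac1.

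Chac1 and Asns, unlike Trib3, averaged above the control level in both irradiated groups. Chac1 (ENSMUSG00000027313, chromosome 2, 119351229 to 119354381), an enzyme that breaks down glutathione, is raised by ATF4. It was at 0.778, 7.90 and 1.51 FPKM in IR+LYC, 1.40, 1.55 and 1.13 in IR and 0.938, 1.88 and 0.529 in control, with 14 to 57 reads in every library but IR+LYC 2, which had 197. IR+LYC 2 thus held 7.08 times the control mean, while the other irradiated libraries lay within the range of the controls. Asns (ENSMUSG00000029752, chromosome 6, 7675169 to 7693254), which makes asparagine and is raised by ATF4 when amino acids run short, was at 16.6, 18.6 and 15.9 FPKM in IR+LYC, 18.3, 18.4 and 13.5 in IR and 11.7, 17.5 and 13.8 in control. The groups overlapped, and both irradiated groups against control gave log2 0.23, 95% interval -0.11 to 0.57, adjusted p = 0.447. The interval for Chac1 in the same comparison was -0.59 to 1.54 with all 9 libraries (log2 0.47) and -0.38 to 0.63 without IR+LYC 2 (log2 0.13).

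Radiation alone was tested in IR against control. Here 8 of 10 genes were lower and 2, Asns and Chac1, higher, with a median log2 of -0.41 against -0.01 over all genes tested, and 0 of 10 passed (0.0195% of all genes did, in either direction). The largest differences were those of Trib3 (log2 -0.98, 95% interval -2.72 to 0.76, adjusted p = 0.673), Herpud1 (log2 -0.76, 95% interval -1.75 to 0.23, adjusted p = 0.637) and Dnajb9 (log2 -0.62, 95% interval -1.40 to 0.16, adjusted p = 0.633). In 6 of the 10 genes, Dnajb9, Herpud1, Xbp1, Atf4, Ddit3 and Trib3, all 3 IR libraries were below all 3 controls, which was so for 14% of all genes. An unadjusted p under 0.05 was reached by 0 of 10 members with all libraries, where 8.34% of all genes reached it, and by 6 of 10 without IR+LYC 2, whose spread enters the shared estimate, where 17.8% of all genes did. In that fit 0 members and 0.637% of all genes passed, and the smallest adjusted p of a member was 0.171, for Atf4. With limma-voom on recovered reads 0 members passed as well.

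Radiation with lycopene was tested in IR+LYC against control. With all 9 libraries 8 of 10 genes were lower (median log2 -0.34 against -0.01 over all genes), 0 passed (0.0195% of all genes did), and Hspa5 alone, 1 of 10 where the share of all genes was 8.64%, had all IR+LYC libraries below all controls. Without IR+LYC 2, 7 of 10 fell, where 15.5% of all genes tested did: Trib3 (log2 -2.08, adjusted p = 0.0222), Dnajb9 (-0.97, 0.0391), Herpud1 (-0.87, 0.0450), Ddit3 (-0.67, 0.0305), Xbp1 (-0.56, 0.0348), Hspa5 (-0.48, 0.0445) and Atf4 (-0.48, 0.0351). The highest adjusted p over the alternatives lay between 0.706 and 0.972 for these 7 genes. Sdf2l1 (-0.07), Asns (0.18) and Chac1 (0.05) did not pass. When control 1, the other library with under 1 FPKM of Fabp6, was left out as well, the differences were of like size (Trib3 -1.97, Dnajb9 -0.75, Atf4 -0.49) and 0 of 10 passed.

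**Figure D3:**
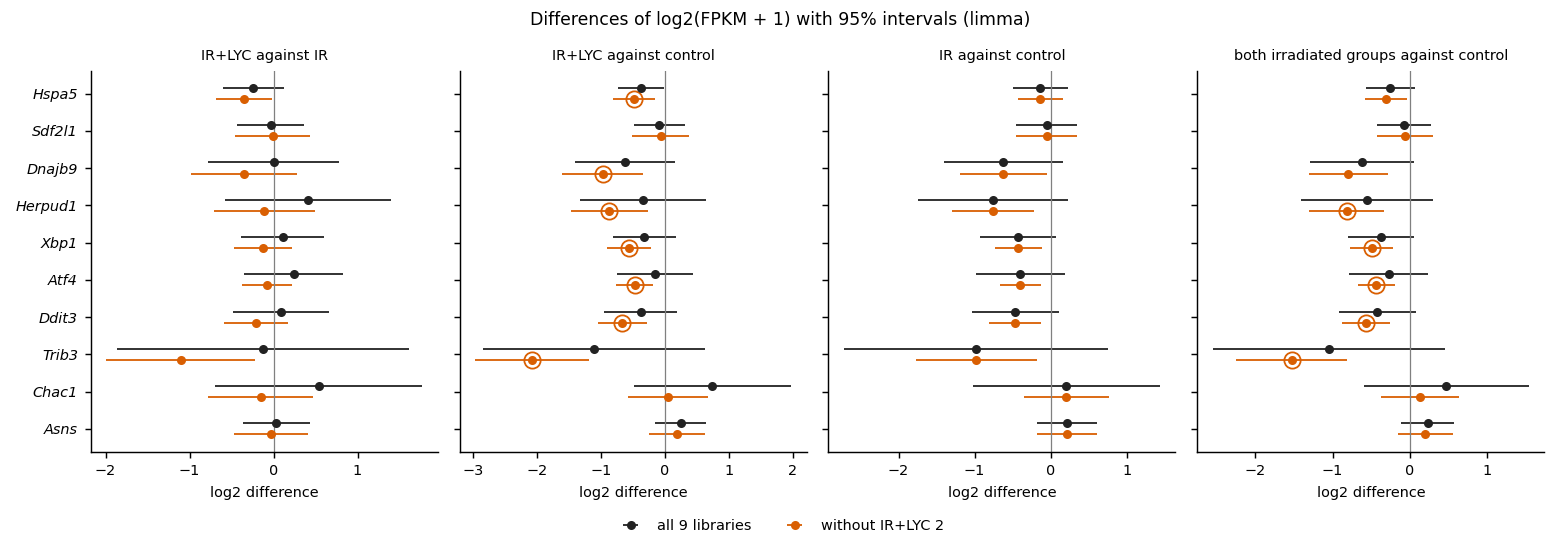
Log2 differences of the 10 genes with 95% intervals in the 4 comparisons, with all 9 libraries (black) and without IR+LYC 2 (orange), on the log2(FPKM + 1) scale; rings mark adjusted p under 0.05. No ring lies on a black point, 7 lie on orange points in IR+LYC against control, and 5 in both irradiated groups against control. Rescaling to equal summed FPKM over all genes but mitochondrial, immunoglobulin and pancreatic ones turns the sign of Hspa5 in IR against control. It also turns that of Atf4 in IR+LYC against control and of Sdf2l1 in all 3 comparisons with control.

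The effect of lycopene in irradiated mice was tested in IR+LYC against IR. With all 9 libraries 7 genes were higher and 3 lower, with a median log2 of 0.06 against -0.01 over all genes; 0 of 10 passed, and 0 of 15391 genes did (0%; 655 had an unadjusted p under 0.05, and limma-voom on recovered reads also passed 0). All 10 genes had overlapping groups. Intervals were wide where IR+LYC 2 was high: Herpud1 -0.58 to 1.40, Trib3 -1.87 to 1.61 and Chac1 -0.69 to 1.77 log2. Without IR+LYC 2 all 10 were lower in IR+LYC than in IR (median log2 -0.14) and again 0 passed. Trib3, at 0.499 and 1.12 FPKM in IR+LYC 1 and 3 against 1.23 to 4.80 in IR, then differed by -1.10 log2 (adjusted p = 0.200, 0.200 to 1 over the alternatives) and Hspa5 by -0.35 (0.227, 0.227 to 1). The sign turned for 7 of the 10 genes when this library was left out.

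Radiation with or without lycopene was tested as the mean of the IR and IR+LYC groups against control. With all 9 libraries 8 of 10 genes were lower (median log2 -0.33 against -0.01), 0 passed (0.0325% of all genes did), and 0 of 10 had all 6 irradiated libraries below all controls (3.98% of all genes did). With IR+LYC 2 left out, 6 of 10 had all 5 irradiated libraries below all controls, where 11.1% of all genes did. In that fit Trib3, Ddit3, Atf4, Xbp1 and Herpud1 fell, 5 of 10 where 7.7% of all genes did, and Dnajb9 missed the threshold (log2 -0.80, adjusted p = 0.0515, 0.0515 to 0.714 over the alternatives). Ddit3 fell by 0.57 (adjusted p = 0.0402, 0.0402 to 0.697) and Atf4 by 0.44 (adjusted p = 0.0406, 0.0406 to 0.849). The 3 comparisons with control share the control libraries and are not independent of each other.

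The scale of the libraries bears on the direction of the smaller differences. Each library was rescaled to the same summed FPKM over all genes but the mitochondrial, immunoglobulin and pancreatic ones. The differences of all genes from control then moved up by a median of 0.19 log2 in IR, in IR+LYC and in both together. This rescaling replaces the deposited scale and leaves those genes out at once, and the part of each in the shift was not tested. Hspa5 then stood at 0.09 in IR against control, Atf4 at 0.07 in IR+LYC against control, and Sdf2l1 at 0.17, 0.14 and 0.15 in IR, IR+LYC and both against control. Relative to the median of all genes on that scale, in both irradiated groups against control with all 9 libraries, Trib3 was at -1.05, Dnajb9 at -0.56, Herpud1 at -0.49, Ddit3 at -0.38, Xbp1 at -0.31, Atf4 at -0.21, Hspa5 at -0.18, Sdf2l1 at -0.0049, Asns at 0.29 and Chac1 at 0.42.

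Markers of several cell types also differed between the libraries, in part along with these genes. Summed enterocyte markers (12 of 12 lower in both irradiated groups against control) and plasma cell markers (9 of 10 lower) were lowest in IR+LYC 1 and IR 2, where Trib3, Dnajb9, Herpud1 and Xbp1 were also low. Trib3 (1.12 FPKM) and Herpud1 (45.8) were about as low in IR+LYC 3, where enterocyte markers summed to 6523. Asns (18.4 FPKM) and Sdf2l1 (60.9) were not low in IR 2. Summed Paneth cell markers were 24805, 15842 and 22414 FPKM in IR+LYC, 23541, 13294 and 15393 in IR and 27338 to 33163 in control (8 of 9 markers lower). They were thus below all controls in IR+LYC 2, the highest library for Herpud1, Xbp1 and Trib3. Goblet cell markers summed to 3005 to 5556 in IR+LYC, 2265 to 2914 in IR and 2674 to 3857 in control, with 5 of 9 lower. Smooth muscle markers were higher in 8 of 8, at 551 to 2898 in IR+LYC, 1345 to 1810 in IR and 625 to 820 in control, and macrophage markers in 7 of 8, at 286 to 745 in IR+LYC, 459 to 847 in IR and 292 to 373 in control. The lowest smooth muscle and macrophage sums of all libraries were those of IR+LYC 2. General epithelial markers summed to 3062 to 6432 in IR+LYC, 4266 to 5818 in IR and 6117 to 6930 in control, so no library lacked epithelial RNA. Of 14 pancreatic acinar markers, 13 were under 1 FPKM and 3 at 0 throughout. No marker of the other lists was at 0 in every library. Fewer cells of a type and less RNA per cell cannot be told apart in such tissue, and the part of these markers in the results was not tested.

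**Figure D4:**
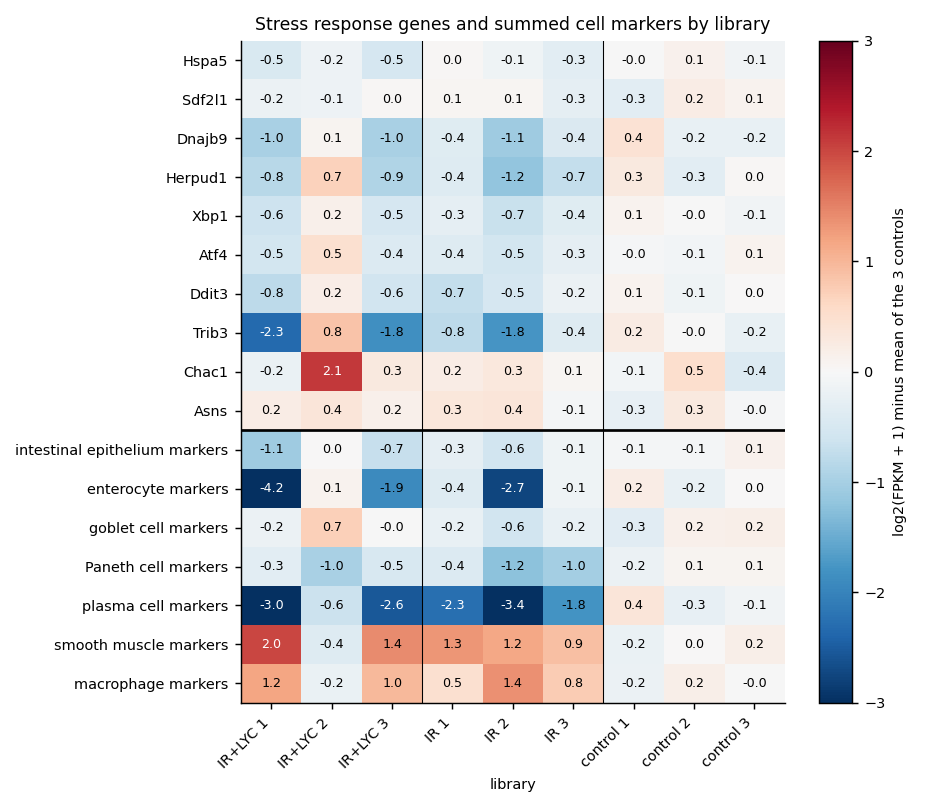
Log2(FPKM + 1) of the 10 genes (above the line) and of the summed FPKM of 7 marker lists (below it) in each library, each minus its mean over the 3 controls; IR+LYC on the left, then IR and control. Trib3 is at -2.3 and -1.8 in IR+LYC 1 and IR 2, where enterocyte markers are at -4.2 and -2.7, and at 0.8 in IR+LYC 2, where they are at 0.1. In IR+LYC 3 Trib3 is at -1.8 and enterocyte markers at -1.9.

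The wider pathway was described with 10 gene lists in both irradiated groups against control. The 10 members are on these lists and are included in their counts, so the lists are not separate from the members. With all 9 libraries 0 of their 158 tested genes passed (31, or 19.6%, had an unadjusted p under 0.05, against 13.7% of all genes), and limma-voom on recovered reads also passed 0 (32 of 159 unadjusted, or 20.1%, against 13.3%). Of all genes, 7.7% fell and 5.67% rose in this comparison without IR+LYC 2, the shares against which the counts of each list are to be read. Genes of ER associated degradation, which pull misfolded proteins out of the ER for destruction, had the lowest median: 15 of 17 were lower (median log2 -0.27, -0.31 without IR+LYC 2), where the median of all genes was -0.01 with and without that library. After the rescaling described above 9 of 17 were lower and the list median was -0.05, -0.21 relative to all genes. Of the 17, 6 fell without IR+LYC 2, against 7.7% of all genes.

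Syvn1, the ubiquitin ligase HRD1 at the centre of that machinery, was at 8.35, 9.70 and 9.09 FPKM in IR+LYC, 9.86, 8.72 and 10.0 in IR and 13.8, 12.9 and 13.7 in control. All 6 irradiated libraries, IR+LYC 2 included, were below all 3 controls (log2 -0.49, adjusted p = 0.122; adjusted p = 0.0183 without IR+LYC 2, 0.0183 to 0.447 over the alternatives). Derl3, a derlin of the retrotranslocation channel that is also on the plasma cell list, was at 1.86, 5.07 and 1.46 FPKM in IR+LYC, 2.09, 1.05 and 2.27 in IR and 7.44, 5.66 and 7.47 in control (log2 -1.33, adjusted p = 0.179; adjusted p = 0.0102 without IR+LYC 2, 0.0102 to 0.594 over the alternatives). It too was lower in 6 of 6 irradiated libraries, and its IR+LYC 2 value was the nearest to the controls. Edem1 and Edem2, lectins that hand misfolded glycoproteins over, were at log2 -0.57 and -0.27, with Edem1 at 16.2, 34.3 and 19.2 FPKM in IR+LYC, 29.8, 21.6 and 28.8 in IR and 38.4, 35.1 and 35.7 in control. Together with Herpud1, Syvn1, Derl3 and Edem1, the genes that fell without IR+LYC 2 were Ube2j1, a ubiquitin conjugating enzyme of the ER, and Sel1l, the partner of HRD1; Sel1l and Ube2j1 were named after their values were seen.

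The sensors themselves had small differences. Ern1 was at 5.43, 5.83 and 5.43 FPKM in IR+LYC, 6.28, 5.25 and 5.69 in IR and 6.33, 6.17 and 6.31 in control, Eif2ak3 at log2 -0.19 (adjusted p = 0.420) and Atf6 at log2 -0.22 (0.415), and Mbtps2, the protease that frees ATF6 in the Golgi, at 0.13 (0.416). Of 10 sensors and site proteases 6 were lower (median log2 -0.09, -0.09 without IR+LYC 2; 3 of 10 lower after the rescaling), and Creb3l1, a membrane-bound factor also made in fibroblasts, was the gene that rose without IR+LYC 2 (adjusted p = 0.0400 without IR+LYC 2, 0.0400 to 0.768 over the alternatives). Of 23 chaperones and folding enzymes 17 were lower (median log2 -0.13, -0.14 without IR+LYC 2; 8 of 23 after the rescaling, where the list median was -0.06 relative to all genes), and 3 fell without IR+LYC 2: Ero1lb, an oxidase of disulfide formation, Creld2 (log2 -0.37 with all libraries) and Txndc11 (-0.33). Ero1lb was at 1.68, 5.08 and 1.91 FPKM in IR+LYC, 2.23, 1.91 and 2.39 in IR and 4.81, 3.86 and 3.80 in control, so that IR+LYC 2 exceeded every control while the 5 other irradiated libraries lay below them. Sil1, the exchange factor of BiP, was on the other side (log2 0.32, adjusted p = 0.368). Of 18 XBP1 targets of the secretory pathway 9 were lower (median log2 -0.0041, -0.01 without IR+LYC 2; 3 of 18 after the rescaling), among them Xbp1, while Pdia5 (log2 0.50), Kdelr3 (0.41), Srp19 (0.23) and Ssr1 (0.20) were higher, with adjusted p from 0.355 to 0.378. Without IR+LYC 2, Xbp1 fell and Pdia5, a disulfide isomerase of the ER, rose on this list.

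Genes of the ATF4 and CHOP axis, a list that holds Atf4 itself and is not one of ATF4 targets alone, did not move one way. On the list of the ATF4 and CHOP axis 10 of 19 were lower (median log2 -0.01, 0.03 without IR+LYC 2; 6 of 19 after the rescaling), and without IR+LYC 2 the genes that fell were Atf4, Ddit3, Trib3 and Ppp1r15b, which encodes a regulatory subunit of the eIF2 alpha phosphatase (4 of 19, against 7.7% of all genes), while Ddit4 and Gdf15 rose (2 of 19, against 5.67%). Ddit4, an inhibitor of mTORC1, was at 52.4, 57.9 and 54.5 FPKM in IR+LYC, 31.6, 40.0 and 26.1 in IR and 19.8, 22.0 and 30.5 in control (log2 0.80, adjusted p = 0.177; adjusted p = 0.0398 without IR+LYC 2, 0.0398 to 0.512 over the alternatives). It was highest in the 3 IR+LYC libraries, and IR overlapped with control. Gdf15, a stress cytokine, was at 2.35, 0.851 and 1.02 FPKM in IR+LYC, 0.824, 1.15 and 0.707 in IR and 0.460, 0.339 and 0.300 in control, with all 6 irradiated libraries above all controls (log2 0.62, adjusted p = 0.297; adjusted p = 0.0428 without IR+LYC 2, 0.0428 to 0.673 over the alternatives). Atf5, a related factor, was at log2 0.41 (0.321) and Bbc3, which encodes the cell death protein PUMA, at 0.24 (0.374).

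Genes of amino acid supply, Asns among them, and of tRNA charging were mostly higher. Of 19 tested genes of amino acid synthesis and import 14 were higher (median log2 0.22, 0.21 without IR+LYC 2), and of 20 cytosolic aminoacyl tRNA synthetases 19 were (median log2 0.23, 0.27 without IR+LYC 2), with 0 passing on either list. Psph, the last enzyme of serine synthesis, was at 2.22, 2.15 and 2.20 FPKM in IR+LYC, 2.41, 2.58 and 2.34 in IR and 1.59, 1.99 and 1.66 in control, and all 6 irradiated libraries were above all controls (log2 0.27, adjusted p = 0.283; adjusted p = 0.0492 without IR+LYC 2, 0.0492 to 0.673 over the alternatives). Slc7a1, which imports arginine and lysine, was higher in 6 of 6 as well (log2 0.23, 0.308), while Slc6a9, a glycine transporter (0.37, 0.321), and Cbs, of transsulfuration (0.38, 0.388), overlapped with control. Farsb, which charges phenylalanine tRNA, was at 29.1, 23.7 and 28.8 FPKM in IR+LYC, 25.9, 27.4 and 23.6 in IR and 20.2, 22.2 and 19.9 in control (log2 0.33, adjusted p = 0.308), and Rars (0.25), Dars (0.29) and Lars (0.32) were on the same side. Of 13 genes of eIF2, its kinases and its exchange factor 11 were higher (median log2 0.17, 0.23 without IR+LYC 2), those with the smallest p being Eif2s1 (0.36), Eif2s2 (0.31), Eif2b3 (0.31) and Eif2s3x (0.27). Without IR+LYC 2, where 5.67% of all genes rose and 7.7% fell, Psph, Cbs and Slc1a4 rose (3 of 19) and Got1, of aspartate metabolism, fell (1 of 19) among the amino acid genes. Farsb and Lars rose among the synthetases (2 of 20) and Eif2s3x and Eif2b1 among the eIF2 genes (2 of 13).

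Chaperones outside the ER were described for contrast. Of 9 mitochondrial chaperones and proteases 8 were higher (median log2 0.24, 0.27 without IR+LYC 2). Hspa9, the mitochondrial relative of BiP, was at 110.3, 109 and 106 FPKM in IR+LYC, 98.4, 107 and 94.9 in IR and 90.4, 86.3 and 82.6 in control, so that all 6 irradiated libraries were above all controls (log2 0.27, adjusted p = 0.340). Hspd1 (0.30), Hspe1 (0.29) and Dnaja3 (0.24) also had no overlap with control, which makes 4 of 9, where all 6 irradiated libraries were above all controls for 4.19% of all genes. Of 12 cytosolic heat shock genes 8 were higher (median log2 0.12, 0.12 without IR+LYC 2): Hspb1 was at log2 0.73 (adjusted p = 0.330), Hsp90ab1 at 0.39 (0.358) and Hsp90aa1 at 0.27 (0.406), while Dnajb1 was at -0.37 (0.360). Without IR+LYC 2 Hspb1 and Dnaja3 rose and Dnajb1 and Dnaja1 fell.

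**Figure D5:**
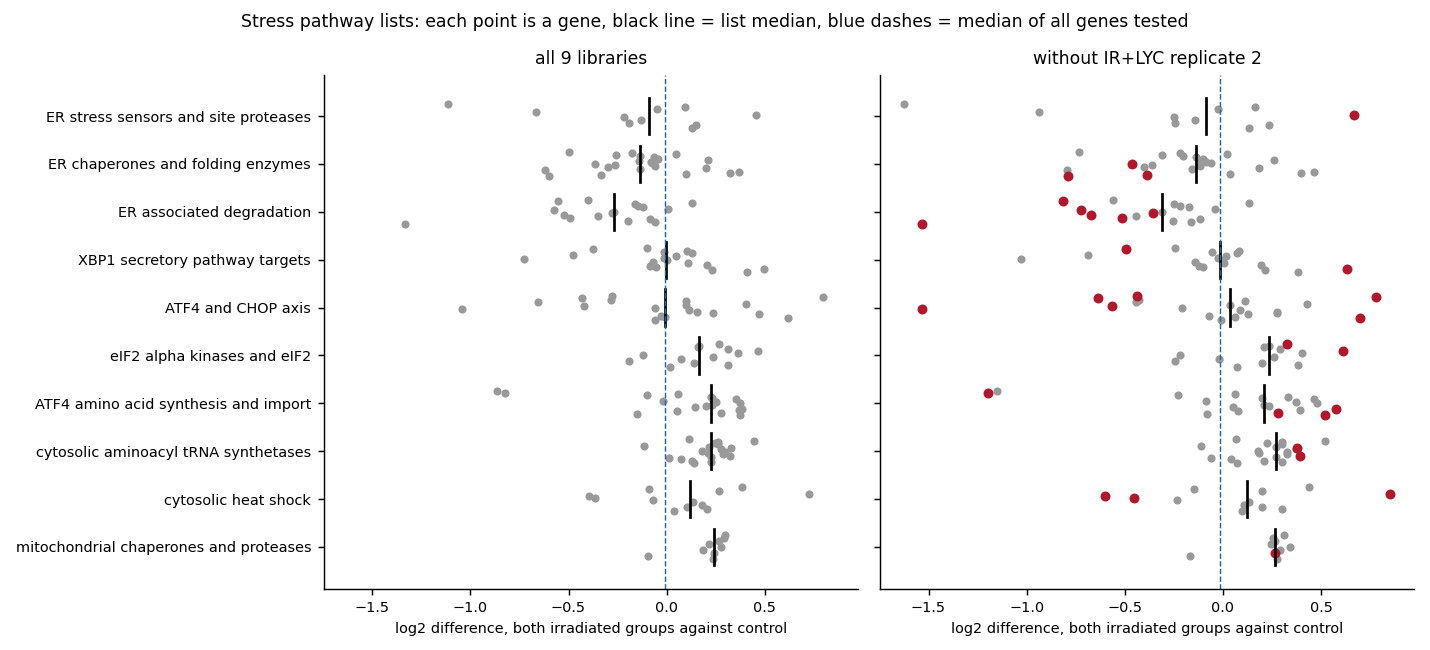
Log2 difference of each gene of the 10 stress pathway lists in both irradiated groups against control, on the log2(FPKM + 1) scale, with all 9 libraries (left) and without IR+LYC 2 (right); black lines are list medians, the blue dashed line is the median of all genes tested, and red points passed the test. The median of ER associated degradation lies at -0.27 and that of the tRNA synthetases at 0.23 with all libraries, where no point is red; the rescaling moves the differences of all genes up by a median of 0.19 and turns the list medians of the sensors, the chaperones, the XBP1 targets and the ATF4 and CHOP axis above 0.

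Genes with the same promoter elements were read in the same comparison, as a description. Of all genes tested 51.4% were lower. Of 16 tested genes with an ERSE 11 were lower, with a median log2 of -0.16 with all 9 libraries and -0.21 without IR+LYC 2. Of the 16, Hspa5, Syvn1, Derl3 and Creld2, all lower, are members or list genes given above, and those on the higher side are not named. Of genes with an ERSE-II, 7 of 9, Herpud1 among them, were also lower (-0.15 with all libraries, -0.26 without IR+LYC 2). These counts are thus not separate from those above. The medians were not computed after the rescaling, which moved the differences of all genes up by a median of 0.19. Of 293 genes with a C/EBP-ATF element 154 were lower (median -0.01), near the median of all genes, as were 2724 of 5354 with the core CCACG (50.9%, median -0.0058), which 7 of the 10 members hold. The members that hold a C/EBP-ATF element lay on either side of the control level: Trib3 and Herpud1 lower, Asns and Chac1 higher.

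Among the genes whose levels over the 9 libraries were most like those of Hspa5 were Ufl1, a ligase that attaches UFM1 (Pearson r = 0.923 of log2(FPKM + 1)), Dnajb11 (0.914) and Hsp90b1 (0.888), both ER chaperones, and Atp6ap1, of the proton pump (0.886), out of 7596 tested genes with a mean of at least 5 FPKM. Those most like Asns were Parm1 (0.889), the mitochondrial ribosome gene Mrps6 (0.883), the tRNA synthetase genes Yars (0.883) and Mars (0.867), and Ssr2 (0.871), of the translocon. Over the 8 libraries without IR+LYC 2, r was 0.933 for Ufl1, 0.948 for Dnajb11, 0.989 for Hsp90b1 and 0.935 for Atp6ap1 with Hspa5, and 0.938 for Parm1, 0.873 for Mrps6, 0.932 for Yars, 0.910 for Mars and 0.849 for Ssr2 with Asns. Libraries of 1 group, their depth and their cell content are shared by these values, so the likeness is a description.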

How the data were processed

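Total RNA of intestine was sequenced in 9 libraries, 3 each of IR+LYC, IR and control. Per the submitters' processing notes, the tools were fastp (no version stated) and HISAT2 2.0.5. The authors deposited FPKM for 54532 Ensembl genes. No source used here names the genome build; the coordinates of the members equal those of GENCODE M21 (GRCm38). Multiplied by gene length, 100% of the deposited FPKM above 0 gave whole reads (tolerance 0.01 read), from which the read totals come. The authors' divisor was 0.854 to 1.26 times these totals, so the values were not scaled by the read totals alone. Median-ratio scaling moved the differences by a median of 3.8e-11 log2 in IR against control and as little in the other comparisons. The deposited values thus already had that scale.

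The tests used limma 3.58.1 (R 4.3.3) on log2(FPKM + 1), computed here, in a single trended model over all groups, with 6 residual degrees of freedom (8.18 after moderation). The filter of 0.5 FPKM or more in 3 or more libraries left 15391 genes, among them all 10 members. P-values are Benjamini and Hochberg values over those genes, called at 0.05. The fit was also run on simulated data with large changes, an equal spread for all genes and no outlying library. That run checks the code and says nothing of the calls made here. The alternatives were a pseudocount of 0.1, other filters (none, or a mean of 5 FPKM or more) and median-ratio scaling. Others were a rescaling to equal summed FPKM over all genes but mitochondrial, immunoglobulin and pancreatic ones, a fit of just the groups compared, a fit with no trend and a replicate block. The rest were limma-voom on recovered reads (16806 genes with 10 or more reads in 3 or more libraries) and the omission of each library. Of the single omissions, that of IR+LYC 2 is given throughout because its values in these data stood apart. The omission of control 1 together with IR+LYC 2 was chosen after the data were seen.

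The members and the gene lists were chosen with earlier results of these data known. Beside the members, the text names up to 4 genes of each list with the smallest p in both irradiated groups against control, the 3 sensors, and the 5 genes most like Hspa5 and most like Asns. 1 gene that this rule selects is not reported here. Creb3l1, Ube2j1, Sel1l, Ppp1r15b, Slc1a4, Got1, Eif2b1 and Dnaja1 were named after their values were seen. Promoters are those of RefSeq (GRCm38.p6). The plots were made in matplotlib 3.10.9 (Python 3.11.15).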

Additional observations from a re-analysis of the deposited data

How the results depend on the processing

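In IR+LYC against IR and in the 3 comparisons with control, 0 members passed under the alternatives run, except without IR+LYC 2. With a mean of at least 5 FPKM 8 members were tested, Trib3 and Chac1 being below it, and the fit of only the groups compared was not run for both irradiated groups against control. Leaving out 1 library at a time gave 0 to 7 members in IR+LYC against control and 0 to 5 in both irradiated groups against control, both highest without IR+LYC 2. Over the same fits the genes that passed numbered 0 to 98 in IR against control, 0 to 4120 in IR+LYC against control and 1 to 2058 in both irradiated groups against control, all highest without IR+LYC 2, which leaves that group with 2 libraries. Without any other library the highest counts were 4, 3 and 9. In IR, in IR+LYC and in both irradiated groups against control, in that order, the genes that passed numbered 1, 0 and 2 with a pseudocount of 0.1, 7, 6 and 9 without a filter, 1, 1 and 1 with a mean of at least 5 FPKM, 0, 0 and 3 with the replicate block or limma-voom on recovered reads, and 16, 83 and 76 without control 1 and IR+LYC 2. With only the groups compared 100 passed in IR and 1 in IR+LYC against control. With the rescaling 1 passed in IR+LYC and 3 in both irradiated groups against control. The cause of these changes was not tested.

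Same-numbered libraries did not deviate together (correlations of -0.652 to 0.375), so the replicate block pairs libraries by number only, and it changed no call of a member.

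Of 742 member differences under an alternative, 693 kept their direction and side of the threshold, 12 passed where they had not, all without IR+LYC 2, and 37 turned sign, 26 of them in IR+LYC against IR. The 693 include those under median-ratio scaling, which the deposited values already had, so that alternative could only give the same result. The other filters, the fit of only the groups compared, the fit with no trend and the replicate block could not change a difference. They could move only its p-value. The same holds where the library left out was of a group outside the comparison. The kept directions of these fits were thus fixed in advance. The rescaling gave log2 0.094 for Hspa5 and 0.17 for Sdf2l1 in IR against control, 0.074 for Atf4 and 0.14 for Sdf2l1 in IR+LYC against control, and 0.15 for Sdf2l1 in both. Dnajb9 in IR+LYC against IR (log2 0.0018) was at -0.00075 with a pseudocount of 0.1 and -0.0057 with limma-voom. Without control 1 and IR+LYC 2, in IR+LYC against IR, Xbp1 was at -0.13, Herpud1 at -0.11, Atf4 at -0.080, Dnajb9 at -0.35, Asns at -0.028, Ddit3 at -0.20 and Chac1 at -0.15. Control 1 does not enter that difference, so these values are those without IR+LYC 2 alone. Both fits are counted among the 26 sign turns. Leaving out 1 library gave, in IR+LYC against IR, -0.15 to 0.020 for Sdf2l1, -0.20 to 0.28 for Ddit3, -0.13 to 0.25 for Xbp1, -0.35 to 0.18 for Dnajb9, -0.10 to 0.10 for Asns, -1.10 to 0.48 for Trib3, -0.11 to 0.69 for Herpud1, -0.080 to 0.44 for Atf4 and -0.15 to 1.01 for Chac1. Against control it gave -0.21 to 0.055 for Sdf2l1 and -0.0058 to 0.45 for Chac1 in IR, -0.25 to 0.015 for Sdf2l1 and -0.48 to 0.040 for Atf4 in IR+LYC, and -0.23 to 0.033 for Sdf2l1 in both. Chac1 rests on 14 to 57 reads in 8 of the 9 libraries and Trib3 on 30 reads in IR+LYC 1.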
